A study of Mus musculus with 12 samples.

Results

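Transcripts of 38 genes of the G2 phase and of mitosis were followed in mouse leukemia cells with and without Rictor, a core subunit of the kinase complex mTORC2. The genes were taken from a given list, were grouped here by their known roles, and were each represented by their brightest probe set. Of the 38, 37 had an Affymetrix probe set annotated to that gene alone, and all 37 passed the filter on dim signals, among 12573 genes tested of 18194 with a probe set. Ccnb1 was not analysed here. RNA came from cells labelled K+G–, sorted from the bone marrow of mice that had received a first transplant of leukemia driven by a fusion of the MLL gene. The labels also name peripheral blood as the host tissue, against the bone marrow of their sort. Each of 4 groups had 3 arrays: RictorΔ/Δ (labelled Rictor deletion) and control (labelled Rictor wild type) with the fusion MLL-AF9, and RictorΔ/Δ and control with the fusion MLL-NRIP3. How Rictor was deleted, the age of the mice and the number of mice behind each group were not found in the labels. A p-value therefore reflects the scatter among the arrays, which may be technical. In a bulk sample, a change in the share of cells in mitosis and a change in mitotic RNA per cell cannot be told apart.

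Cells enter mitosis when CDK1, bound to cyclin A and then to B-type cyclins, becomes active. Aurora and Polo-like kinases, kinesins and microtubule-binding proteins then build the spindle, kinetochores attach chromosomes to it, and the spindle checkpoint holds back the anaphase promoting complex until all are attached. Most of these genes are transcribed late in the cell cycle, through promoters that carry a cell cycle homology region (CHR) bound by the MuvB complex together with B-MYB or FOXM1, and CCAAT boxes bound by NF-Y. Their RNA is widely read as a sign of proliferation, and in blood formation it is low in resting stem cells and high in dividing progenitors.

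The promoters of the genes were searched for these motifs as a description of the list. Since the motifs are known in mitotic genes, a high share could follow from the choice of the list. Whether they bear on the movement of the genes on the arrays was not tested. RefSeq sequence of build GRCm38.p6, from 250 bases before to 50 after an annotated start, was at hand for 33 promoters of 31 of the 38 genes. The CHR was searched as TTTGAA or TTCGAA and the CCAAT box as CCAAT, on both strands. A CHR match was present in 26 of the 33 promoters (78.8%), against 19.2% of all 32851 promoters of the table. A CCAAT match was present in 24 (72.7%), against 37.4% of all promoters, and both in 22 (66.7%), against 7.52%. From 150 bases before the start onward the numbers were again 26, 24 and 22, against 12%, 28.6% and 3.58% of all promoters. A CHR match that began within 50 bases of the start, a range chosen after the matches were seen, occurred in 23 of the 33 promoters (69.7%) and in 5.31% of all promoters. Among matches to TTTGAA and its reverse complement TTCAAA, 26 of 33 (78.8%) read TTTGAA along the gene, against 53.3% of 6737 such matches in all promoters. This count, too, was chosen after the matches were seen. Ect2 and Prc1 entered with 2 overlapping starts each, so their matches were counted more than once. These matches describe letters in a window and not bound sites.

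**Figure D1:**
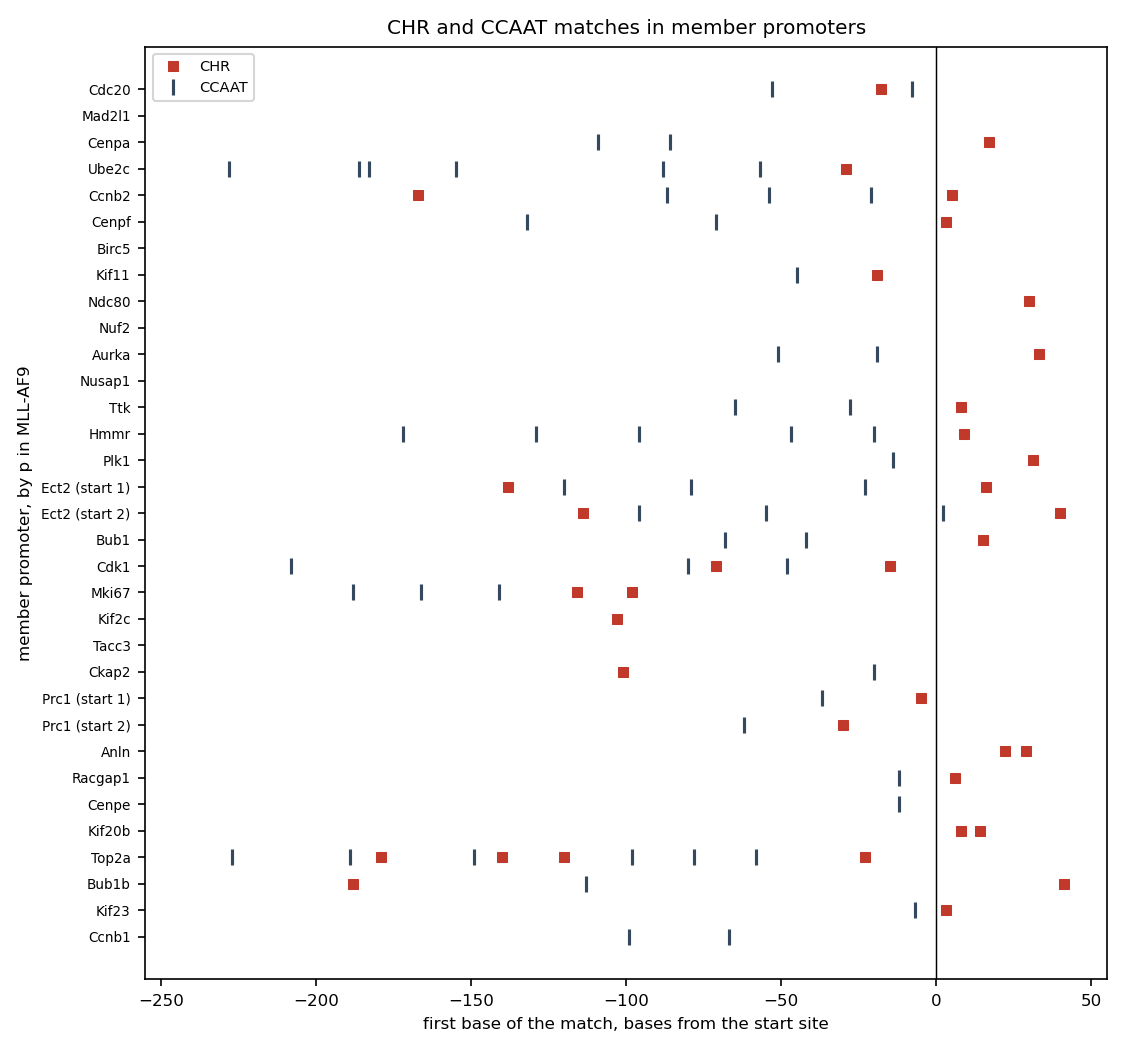
Position of each CHR match (squares) and CCAAT match (bars), as bases from the start site (x axis), in the 33 promoters of the listed genes (y axis, ordered by p in MLL-AF9 leukemia, Ccnb1 last). CHR matches crowd around the start, in 23 promoters within 50 bases of it, and CCAAT matches mostly lie before it.

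The 6 promoters below hold both motifs and belong to the genes with the smallest p among those whose RNA rose in Rictor-deleted MLL-AF9 leukemia. They are written 5′ to 3′ along the gene, with CHR and CCAAT matches in capitals; in Ube2c a pair of CCAAT matches of opposite strands overlap. The Cdc20 promoter lies at chr4:118437294-118437593 on the minus strand, that of Cenpa at chr5:30666636-30666935 on the plus strand and that of Ube2c at chr2:164769679-164769978 on the plus strand. The Ccnb2 promoter lies at chr9:70421505-70421804 on the minus strand, that of Cenpf at chr1:189688037-189688336 on the minus strand and that of Kif11 at chr19:37376132-37376431 on the plus strand.
Cdc20: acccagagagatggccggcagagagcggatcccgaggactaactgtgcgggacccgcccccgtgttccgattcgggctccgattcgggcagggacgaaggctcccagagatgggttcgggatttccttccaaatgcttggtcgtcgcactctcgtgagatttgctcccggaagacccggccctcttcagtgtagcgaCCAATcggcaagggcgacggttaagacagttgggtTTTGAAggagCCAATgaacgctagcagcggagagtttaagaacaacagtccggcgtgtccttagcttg
Cenpa: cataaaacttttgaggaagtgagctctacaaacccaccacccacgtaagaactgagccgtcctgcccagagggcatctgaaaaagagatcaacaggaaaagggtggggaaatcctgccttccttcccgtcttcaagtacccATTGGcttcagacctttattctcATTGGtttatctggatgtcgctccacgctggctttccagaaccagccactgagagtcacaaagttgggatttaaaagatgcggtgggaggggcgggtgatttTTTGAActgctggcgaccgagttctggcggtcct
Ube2c: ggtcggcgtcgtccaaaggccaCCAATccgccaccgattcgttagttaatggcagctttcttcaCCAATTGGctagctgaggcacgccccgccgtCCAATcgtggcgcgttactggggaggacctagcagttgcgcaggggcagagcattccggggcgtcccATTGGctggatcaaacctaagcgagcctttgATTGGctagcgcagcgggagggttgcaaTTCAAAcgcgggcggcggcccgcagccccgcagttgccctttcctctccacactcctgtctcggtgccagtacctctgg
Ccnb2: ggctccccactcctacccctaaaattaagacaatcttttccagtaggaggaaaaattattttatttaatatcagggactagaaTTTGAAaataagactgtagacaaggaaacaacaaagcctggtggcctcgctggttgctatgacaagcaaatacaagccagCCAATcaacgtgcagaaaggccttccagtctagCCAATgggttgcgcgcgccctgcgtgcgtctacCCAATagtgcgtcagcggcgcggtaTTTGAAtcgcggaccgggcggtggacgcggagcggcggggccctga
Cenpf: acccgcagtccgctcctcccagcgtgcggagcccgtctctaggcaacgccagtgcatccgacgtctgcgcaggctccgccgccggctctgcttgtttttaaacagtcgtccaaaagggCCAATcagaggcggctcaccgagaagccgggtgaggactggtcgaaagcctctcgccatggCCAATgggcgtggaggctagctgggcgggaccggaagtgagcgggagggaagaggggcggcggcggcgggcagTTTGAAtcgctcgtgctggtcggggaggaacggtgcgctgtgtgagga
Kif11: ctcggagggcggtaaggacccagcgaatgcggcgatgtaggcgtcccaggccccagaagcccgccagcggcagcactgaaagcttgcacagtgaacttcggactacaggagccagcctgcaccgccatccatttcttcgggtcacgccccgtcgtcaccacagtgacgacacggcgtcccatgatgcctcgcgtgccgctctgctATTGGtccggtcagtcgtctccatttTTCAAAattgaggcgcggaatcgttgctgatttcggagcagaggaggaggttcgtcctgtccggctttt

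In these sequences the CHR match nearest the start begins 18 bases before it in Cdc20, 29 before it in Ube2c and 19 before it in Kif11. It begins at base 5 after the start in Ccnb2, base 3 in Cenpf and base 17 in Cenpa. Among the promoters of genes called higher in MLL-AF9 leukemia, 6 of 8 held a CHR match, against 20 of 25 promoters of the other listed genes. The 25 include that of Ccnb1, which was not analysed, and 2 starts each for Ect2 and Prc1. No promoter was at hand for Aurkb, which was called. With so few promoters, whether the motif sets the called genes apart within the list cannot be told. The promoters of Mad2l1 and Birc5, both called, held neither motif in this window.

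Some properties of the arrays bear on the values. The median intensity was 8.16 to 8.36 on the MLL-AF9 arrays and 13.6 to 14.2 on the MLL-NRIP3 arrays, which appear to have been scaled separately, so levels were compared only within a model. MLL-NRIP3 control arrays 1 and 2 stood apart in the 5′ to 3′ ratio of the Gapdh control probe sets, at 0.562 and 0.738, against 0.881 to 0.965 on the other 4 arrays of the model. MLL-AF9 control array 3 read 0.901, against 1.01 to 1.09 in its model. Rictor itself read 77.9, 88.1 and 96.4 on RictorΔ/Δ arrays and 84.4, 92.4 and 83.7 on control arrays in MLL-AF9 leukemia. It read 84.5, 107 and 121 on RictorΔ/Δ arrays and 87.5, 111 and 139 on control arrays in MLL-NRIP3 leukemia. The place of this probe set relative to the deleted part was not found in the labels, so its values check nothing. In MLL-AF9 leukemia Xist read 34.3 to 208 on RictorΔ/Δ arrays and 2348 to 2441 on control arrays, and the Y-linked Eif2s3y 149 to 186 and 3.43 to 7.81, so sex and Rictor genotype cannot be told apart in that model. In MLL-NRIP3 leukemia Xist read 2509 to 3558 and Eif2s3y below 4 on all 6 arrays. Of the surface markers, Ptprc, which encodes CD45, read 1448 to 2244 over all arrays, and Kit 135 to 232 in MLL-AF9 and 307 to 593 in MLL-NRIP3 leukemia.

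The first comparison asked how Rictor deletion changed these transcripts in MLL-AF9 leukemia. Mitotic transcripts were slightly more abundant in Rictor-deleted cells: 36 of 37 had a log2 fold change above 0, against 45.7% of all genes tested, and 9 rose in limma at an adjusted p under 0.05. Among all genes tested 8.26% were called, 3.8% higher and 4.46% lower. None of the 37 was called lower, and 23 had an unadjusted p under 0.05, against 21.8% of all genes. The median log2 fold change of the 37 was 0.22, on the scale of log2(intensity + 16), against −0.01 for all genes tested, and the range was −0.03 to 0.50. In 19 of the 37 all RictorΔ/Δ arrays lay above all controls, as in 11.4% of all genes, and in 0 did they all lie below, as in 15.7% of all genes. The changes were small beside those of other genes of these cells: the greatest fold among the 37 was 1.41.

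The pair of listed genes that work with the anaphase promoting complex both rose. Cdc20, which activates the complex at the end of metaphase, read 562, 588 and 583 on RictorΔ/Δ arrays and 457, 342 and 421 on control arrays. All deleted arrays lay above all controls, and the fold was 1.41 (log2 fold change 0.50 ± 0.09 SE, limma adjusted p = 0.0052). Ube2c, the ubiquitin-conjugating enzyme of the complex, read 933, 1008 and 946 on RictorΔ/Δ arrays and 858, 746 and 754 on control arrays, a 1.22-fold rise (adjusted p = 0.016). The groups were again separate, with control array 1 nearest to the deleted arrays.

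Of the 7 mitotic kinases and checkpoint proteins, 2 rose and 5 were not called. Mad2l1 encodes MAD2, the checkpoint protein that holds CDC20 inactive. It read 635, 619 and 635 on RictorΔ/Δ arrays and 546, 505 and 485 on control arrays, a 1.22-fold rise (log2 fold change 0.29 ± 0.06 SE, adjusted p = 0.0092). Aurkb encodes Aurora B, the kinase that corrects faulty attachments of kinetochores, and read 164, 205 and 184 on RictorΔ/Δ arrays and 151, 121 and 123 on control arrays, a 1.35-fold rise (adjusted p = 0.018). Both genes had separate groups. Aurka, Plk1 and Ttk, also mitotic kinases, had separate groups as well, with log2 fold changes of 0.22, 0.25 and 0.24, but did not pass the threshold (adjusted p of 0.071, 0.11 and 0.087). The checkpoint kinases Bub1 and Bub1b were at 0.23 and 0.05, with overlapping groups.

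Of the 7 centromere, kinetochore and chromosomal passenger genes, 3 rose and 4 were not called, and in 6 the groups were separate. Cenpa, the histone H3 variant that marks centromeres, read 355, 370 and 364 on RictorΔ/Δ arrays and 310, 284 and 287 on control arrays, a 1.23-fold rise (adjusted p = 0.011). Cenpf, a large kinetochore protein that accumulates in G2, read 196, 244 and 213 on RictorΔ/Δ arrays and 170, 177 and 154 on control arrays, a 1.28-fold rise (adjusted p = 0.027). Birc5, which encodes survivin, a subunit of the chromosomal passenger complex that contains Aurora B, read 361, 382 and 362 on RictorΔ/Δ arrays and 335, 297 and 270 on control arrays, a 1.22-fold rise (adjusted p = 0.041). In each of the 3 genes every deleted array exceeded every control. Incenp, the scaffold of the same complex, read 870, 921 and 899 on RictorΔ/Δ arrays and 845, 699 and 771 on control arrays, and was not called (0.22 ± 0.07 SE, adjusted p = 0.076). Ndc80 and Nuf2, which form part of the microtubule-binding complex of the kinetochore, were at 0.26 and 0.24 with adjusted p of 0.059 and 0.062. The kinetochore motor gene Cenpe was at 0.11, and at 0.36 in a further probe set.

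Among the cyclins and their kinase, Ccnb2 rose and 3 others were not called. Ccnb2, a B-type cyclin, read 569, 565 and 522 on RictorΔ/Δ arrays and 481, 453 and 450 on control arrays, a 1.19-fold rise (log2 fold change 0.25 ± 0.06 SE, adjusted p = 0.021). Ccna2, which encodes cyclin A2, had separate groups at 0.24 (adjusted p = 0.077). Cdk1 read 595, 612 and 508 on RictorΔ/Δ arrays and 520, 504 and 482 on control arrays, with overlapping groups (0.18 ± 0.07 SE, adjusted p = 0.17). Cdc25c, a phosphatase that activates CDK1, gave a dim signal of 21.1, 26 and 22.8 on RictorΔ/Δ arrays and 23.1, 19.4 and 22.3 on control arrays, and the groups overlapped.

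Of 5 kinesins only Kif11 was called. Kif11 encodes Eg5, the motor that pushes spindle poles apart, and read 205, 223 and 253 on RictorΔ/Δ arrays and 183, 177 and 189 on control arrays, a 1.22-fold rise (adjusted p = 0.048). The other 4 were at 0.20 (Kif20a), 0.17 (Kif2c), 0.08 (Kif20b) and −0.03 (Kif23, the one negative value of the list). Kif23 works in cytokinesis with Racgap1, in the centralspindlin complex; the brightest probe set of Racgap1 was at 0.11 and its further probe set at 0.25, neither called. None of the 3 cytokinesis genes was called; Ect2, which activates RHOA at the cell equator, was at 0.26 and Anln, which encodes anillin, at 0.12. None of the 7 spindle assembly and microtubule-binding genes was called either (0.05 to 0.25), with the greatest values for the spindle protein gene Hmmr (0.25) and the least for Dlgap5 (0.05).

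The most used marker of proliferation, Mki67, differed little. It read 1451, 1581 and 1377 on RictorΔ/Δ arrays and 1369, 1259 and 1354 on control arrays, with separate groups (log2 fold change 0.14 ± 0.06 SE, 95% interval 0.01 to 0.27, adjusted p = 0.18). Top2a, the topoisomerase that untangles chromosomes, read 958, 1028 and 1018 on RictorΔ/Δ arrays and 984, 884 and 999 on control arrays, with overlapping groups and a log2 fold change of 0.07 (95% interval −0.06 to 0.20). In both genes the interval of the brightest probe set leaves out a change of the size found for Cdc20. A further, dimmer probe set of Top2a was less precise, at 0.22 ± 0.13 SE, and was not called (limma adjusted p = 0.38).

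**Figure D2:**
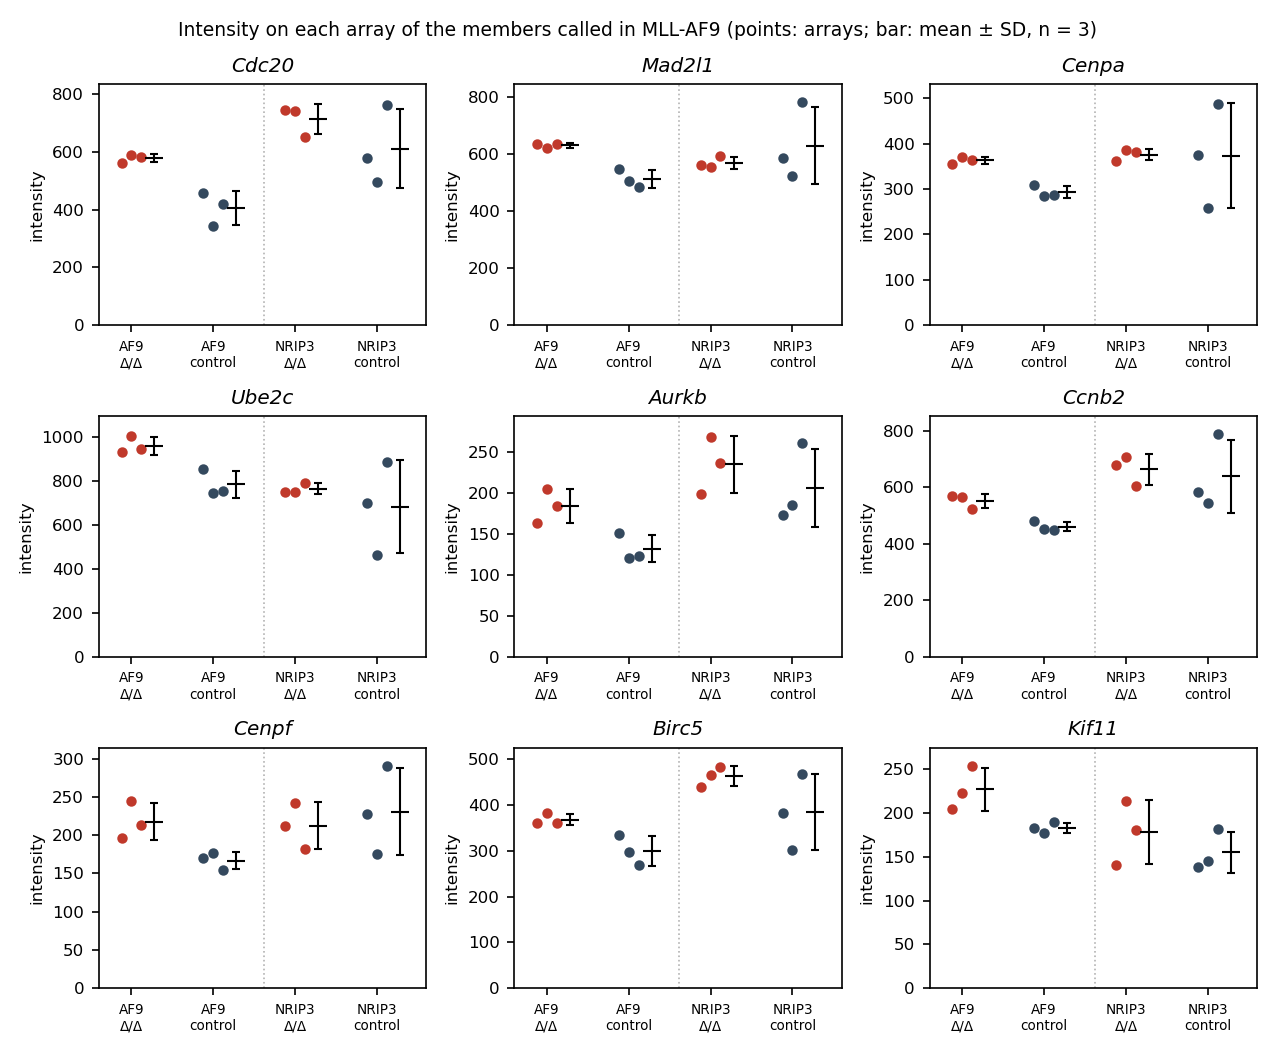
Intensity (y axis, linear, from 0) on each of the 3 arrays per group (points) with mean ± SD (bars) for the 9 genes called higher in MLL-AF9 leukemia. The RictorΔ/Δ points lie above the control points in MLL-AF9 leukemia (left of the dotted line) and fall within or near the wide control range in MLL-NRIP3 leukemia (right); levels left and right are not on a common scale.

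The genes varied together from array to array, so they do not count as independent cases. Within the RictorΔ/Δ arrays of MLL-AF9 leukemia array 2 was the highest of the 3 for 31 of 37 genes, as it was for 37.2% of all genes tested. Its median deviation from the control mean was 0.30 on the log2 scale, against 0.13 and 0.17 on arrays 1 and 3. Within the controls array 1 was the highest for 27 of 37 genes, with a median deviation of 0.06, against −0.04 and −0.01 on arrays 2 and 3. Every deleted array thus exceeded every control array in the median of the list.

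The calls depended on the estimate of the spread and on single arrays. With 1 spread shared by all 12 arrays, 0 of the 37 genes were called and 7 had an unadjusted p under 0.05 (limma adjusted p from 0.15 to 0.76 for the 9), where 0.939% of all genes were called higher. The share of all genes with an unadjusted p under 0.05 in that fit was not counted. Without control array 2, control array 3 or RictorΔ/Δ array 2 there were 4, 3 and 2 calls among the 37. In the same fits 433, 329 and 311 of all 12573 genes were called higher. Cdc20 and Mad2l1 kept their calls when any 1 of the 6 arrays was left out (limma adjusted p up to 0.043). That of Cenpa ended without RictorΔ/Δ array 2 (0.055), and with the mean of its probe sets its log2 fold change was 0.16 (0.20). Those of Ube2c and Aurkb each ended without any 1 of 4 arrays (control arrays 2 and 3, RictorΔ/Δ arrays 2 and 3), that of Ccnb2 without control array 2 or 3 or RictorΔ/Δ array 1 or 2, and that of Cenpf without control array 3 or RictorΔ/Δ array 2 or 3. That of Birc5 ended without any 1 array other than control array 1, and that of Kif11 without any 1 array other than RictorΔ/Δ array 1. The adjusted p without an array reached 0.081 for Ube2c, 0.087 for Aurkb, 0.094 for Ccnb2, 0.11 for Cenpf, 0.15 for Birc5 and 0.18 for Kif11. With the mean of the probe sets Aurkb and Birc5 missed the threshold (0.081 and 0.065), without a trend Birc5 and Kif11 did (0.066 and 0.063), and Kif11 did with a pseudocount of 64 or no filter (0.054 and 0.057).

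**Figure D3:**
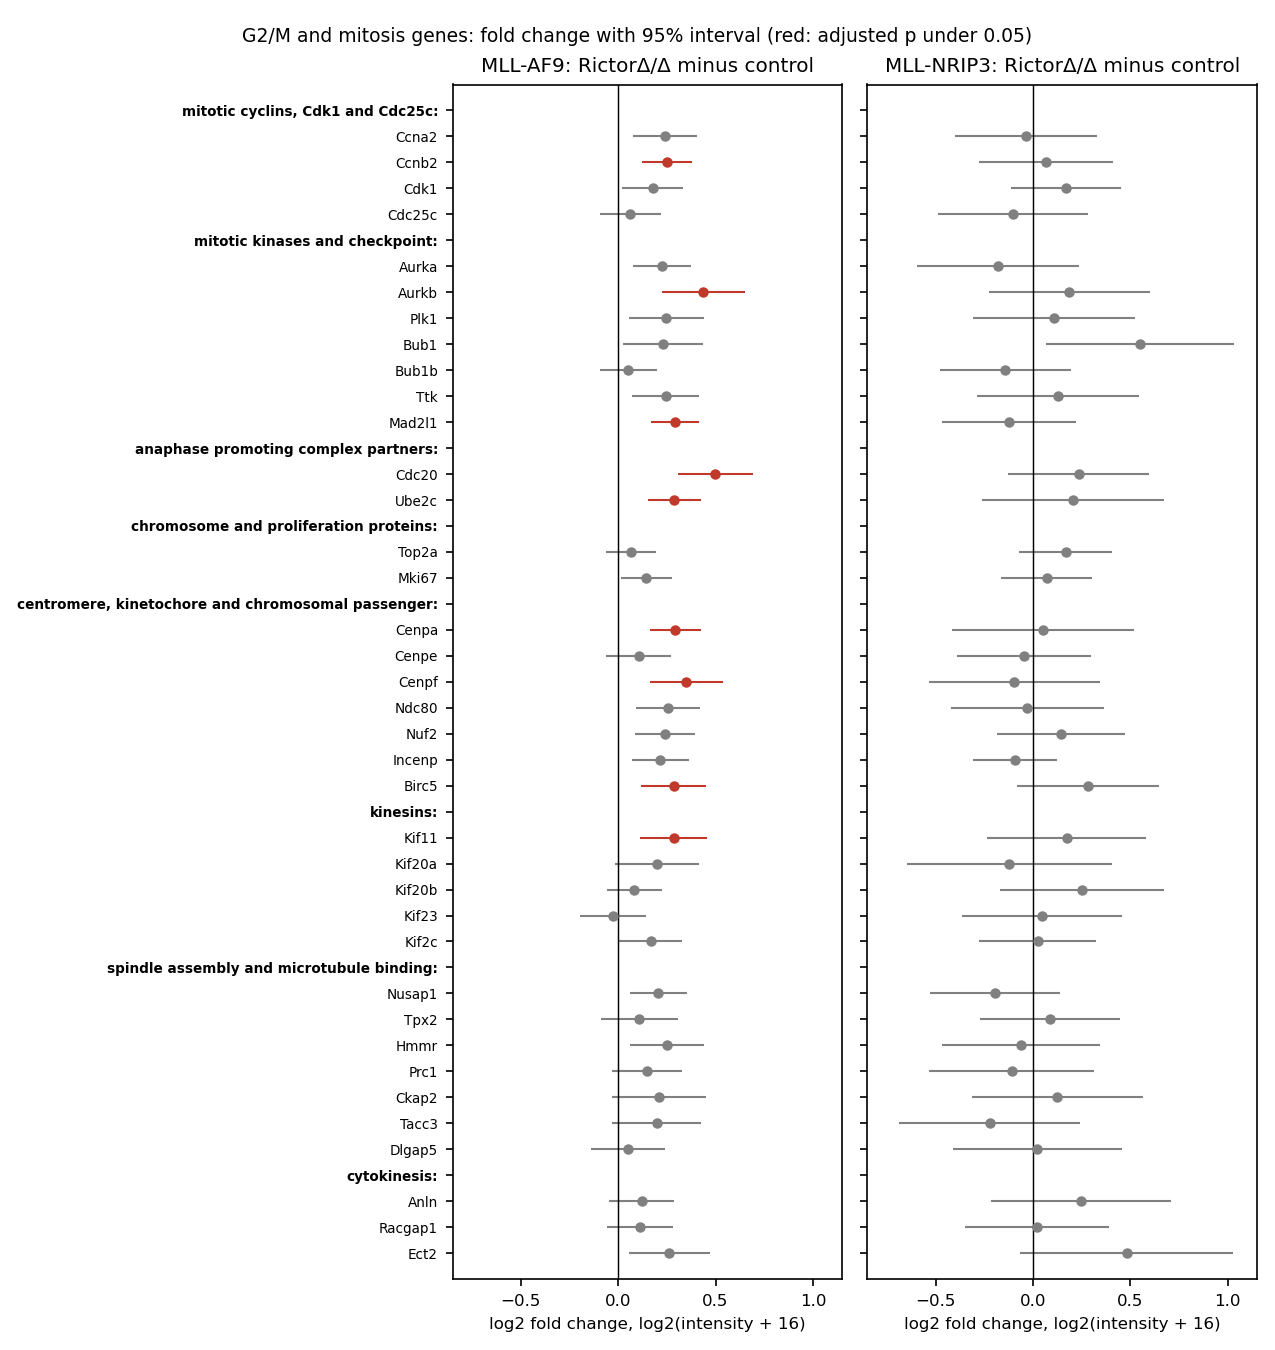
Log2 fold change of each listed gene with its 95% interval (x axis), RictorΔ/Δ minus control, by role (y axis), in MLL-AF9 (left) and MLL-NRIP3 leukemia (right); red marks an adjusted p under 0.05 in limma. In MLL-AF9 leukemia 36 of 37 points lie right of 0 with narrow intervals, and in MLL-NRIP3 leukemia 23 of 37 do, with wider ones.

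Other mitotic genes, from a longer list, moved the same way in MLL-AF9 leukemia. Of 82 tested, 22 rose, 0 fell and 60 were not called, and the median was 0.20. Over all genes tested 3.8% were called higher and 4.46% lower, and 21.8% had an unadjusted p under 0.05. Ncapg2, a condensin subunit, was at 0.51 ± 0.08 (SE, log2 fold change, adjusted p = 0.0020), Cdca2 at 0.59, the importin gene Kpna2 at 0.31 and Spc25, of the same kinetochore complex as Ndc80 and Nuf2, at 0.38 (adjusted p of 0.0056, 0.0062 and 0.0071). The core of the anaphase promoting complex did not share this rise: the median of 16 subunit genes and cofactors was −0.02, against −0.01 for all genes. Of the 16, 0 had an unadjusted p under 0.05 and 0 were called in limma. With so few genes, 0 calls is close to the 8.26% of all genes called. Of 14 regulators of mitotic transcription, 2 rose, E2f8 (0.31, adjusted p = 0.028) and Mybl2, which encodes B-MYB (0.29, adjusted p = 0.043), whereas Foxm1 was at 0.02. Of 38 genes of G1/S and DNA replication, 5 rose and 0 fell, with a median of 0.10. Among these were Rrm2, a ribonucleotide reductase subunit (0.59, adjusted p = 1.6e-04), and Gmnn, which encodes the replication licensing inhibitor geminin (0.27, adjusted p = 0.0067).

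Some genes used as markers of other cell types also moved with the genotype in MLL-AF9 leukemia. Of 23 mature neutrophil genes tested, 22 rose, and their summed intensity was 38907 to 42757 on RictorΔ/Δ arrays and 12524 to 17859 on control arrays. Of 14 monocyte and macrophage genes 7 fell and 0 rose, with sums of 3557 to 4002 on RictorΔ/Δ arrays and 4526 to 5248 on control arrays. Of 9 lymphocyte genes 2 fell and 4 lay above 0, with sums of 1215 to 1339 on RictorΔ/Δ arrays and 1462 to 1630 on control arrays. Of 5 mast cell and basophil genes 1 fell and 3 lay above 0, at a median log2 fold change of 0.04. Their sums overlapped, at 285 to 348 on RictorΔ/Δ arrays and 333 to 414 on control arrays. The progenitor marker Kit was at −0.39 (adjusted p = 0.056). Of 17 erythroid genes 5 were tested and 0 called, with 1 at an unadjusted p under 0.05, and 7 with a probe set were left out as dim, among them Hba-a1, Alas2 and Gata1, none of whose probe sets exceeded 11.8 on any array. Which cells carried the RNA of these markers was not tested, nor was their part in the rise of mitotic transcripts.

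In MLL-NRIP3 leukemia the values of mitotic transcripts varied widely between arrays. The number of calls depended on how arrays were weighted, over all genes as in the list. Over all genes 192 were called with equal weights and 3009 with a weight estimated for each array, so the calls do not set the list apart. With equal weights none of the 37 genes was called in either direction in limma, and 1, Bub1, had an unadjusted p under 0.05, as 17.7% of all genes did. Among all genes 1.53% were called, 0.779% higher and 0.748% lower. Log2 fold changes lay above 0 for 23 of 37 genes, against 49.9% of all genes, and the median was 0.05, against 0.00 for all genes, with a range of −0.22 to 0.55. In 0 of the 37 did all RictorΔ/Δ arrays lie above all controls, as in 9.7% of all genes, and in 1, Incenp, they all lay below, as in 12.7%. With a weight estimated for each array 3 genes were called higher, Bub1 (log2 fold change 0.62, adjusted p = 0.012), Cdc20 (0.43, 0.025) and Birc5 (0.38, 0.047), where 13.2% of all genes were called higher, and the median was 0.11. Without control array 3 Ect2 alone was called (0.76, adjusted p = 0.033), where 2.85% of all genes were called higher.

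Bub1, a kinase of the spindle checkpoint, read 455, 542 and 367 on RictorΔ/Δ arrays and 232, 295 and 400 on control arrays. The groups overlapped through control array 3 (log2 fold change 0.55 ± 0.21 SE, 95% interval 0.07 to 1.03, adjusted p = 0.23). Ect2 read 106, 125 and 132 on RictorΔ/Δ arrays and 60.3, 68.6 and 128 on control arrays (0.48 ± 0.24 SE, adjusted p = 0.34), where control array 3 was again as bright as the deleted arrays. Birc5 read 440, 465 and 484 on RictorΔ/Δ arrays and 382, 301 and 468 on control arrays (0.28 ± 0.16 SE, adjusted p = 0.40). Without control array 3 the log2 fold changes of Bub1, Ect2 and Birc5 were 0.74, 0.76 and 0.43, and without control arrays 1 and 2 they were 0.16, −0.08 and −0.01.

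Cdc20, the gene with the smallest p in MLL-AF9 leukemia, read 743, 741 and 651 on RictorΔ/Δ arrays and 577, 495 and 761 on control arrays here (0.23 ± 0.16 SE, adjusted p = 0.48). It was at 0.40 without control array 3 (adjusted p = 0.094), 0.098 without control array 2 and −0.10 without control arrays 1 and 2. Cdk1 read 475, 456 and 506 on RictorΔ/Δ arrays and 426, 374 and 477 on control arrays (0.17 ± 0.12 SE, adjusted p = 0.52). Top2a read 1121, 1322 and 1219 on RictorΔ/Δ arrays and 1020, 1054 and 1182 on control arrays (0.17 ± 0.10 SE, adjusted p = 0.45). In these 3 genes, too, control array 3 was the highest control.

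Of the other genes that rose in MLL-AF9 leukemia, Mad2l1 read 560, 554 and 592 on RictorΔ/Δ arrays and 586, 521 and 780 on control arrays. Cenpa read 362, 385 and 381 on RictorΔ/Δ arrays and 375, 259 and 488 on control arrays, and Ube2c 750, 753 and 794 on RictorΔ/Δ arrays and 700, 465 and 889 on control arrays. In each, the deleted arrays were close to each other and lay inside the range of the controls. Aurkb read 200, 269 and 237 on RictorΔ/Δ arrays and 173, 186 and 261 on control arrays. Ccnb2 read 678, 708 and 604 on RictorΔ/Δ arrays and 584, 545 and 787 on control arrays, and Cenpf 212, 243 and 182 on RictorΔ/Δ arrays and 227, 175 and 290 on control arrays. Kif11 read 141, 214 and 181 on RictorΔ/Δ arrays and 138, 146 and 182 on control arrays. All 4 had overlapping groups, with control array 3 the highest control. Mki67 read 1233, 1462 and 1476 on RictorΔ/Δ arrays and 1381, 1249 and 1331 on control arrays (0.07 ± 0.10 SE, 95% interval −0.16 to 0.30). Cdc25c read 33.7, 44.9 and 29.8 on RictorΔ/Δ arrays and 39.4, 30.5 and 50.5 on control arrays. Incenp read 790, 851 and 879 on RictorΔ/Δ arrays and 895, 886 and 906 on control arrays, a separate but small difference (−0.09 ± 0.09 SE, adjusted p = 0.65). Deleted arrays all above the controls in MLL-AF9 and all below them in MLL-NRIP3 leukemia, as for Incenp, occurred in 1.59% of all genes.

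The spread of mitotic transcripts between replicates was wider in this model, and wider than that of other genes. The median SD per gene, on the log2 scale, was 0.20 in RictorΔ/Δ and 0.27 in control arrays, against 0.14 and 0.15 for all genes tested. In MLL-AF9 leukemia it was 0.09 and 0.08, against 0.06 and 0.08. Among the MLL-NRIP3 controls array 2 was the lowest for 31 of 37 genes, as it was for 31.8% of all genes, and array 3 the highest for 24, as for 36.1%. Their median deviations from the control mean were −0.24 and 0.19, against 0.02 on array 1. Among the RictorΔ/Δ arrays array 2 was the highest for 27 genes (37.7% of all genes), with a median deviation of 0.19, against −0.09 and 0.02 on arrays 1 and 3. The direction of the list's median thus rested on single arrays: it was −0.06 without control array 2, −0.0034 without RictorΔ/Δ array 2 and −0.10 without control arrays 1 and 2, when 7 of 37 genes were positive.

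**Figure D4:**
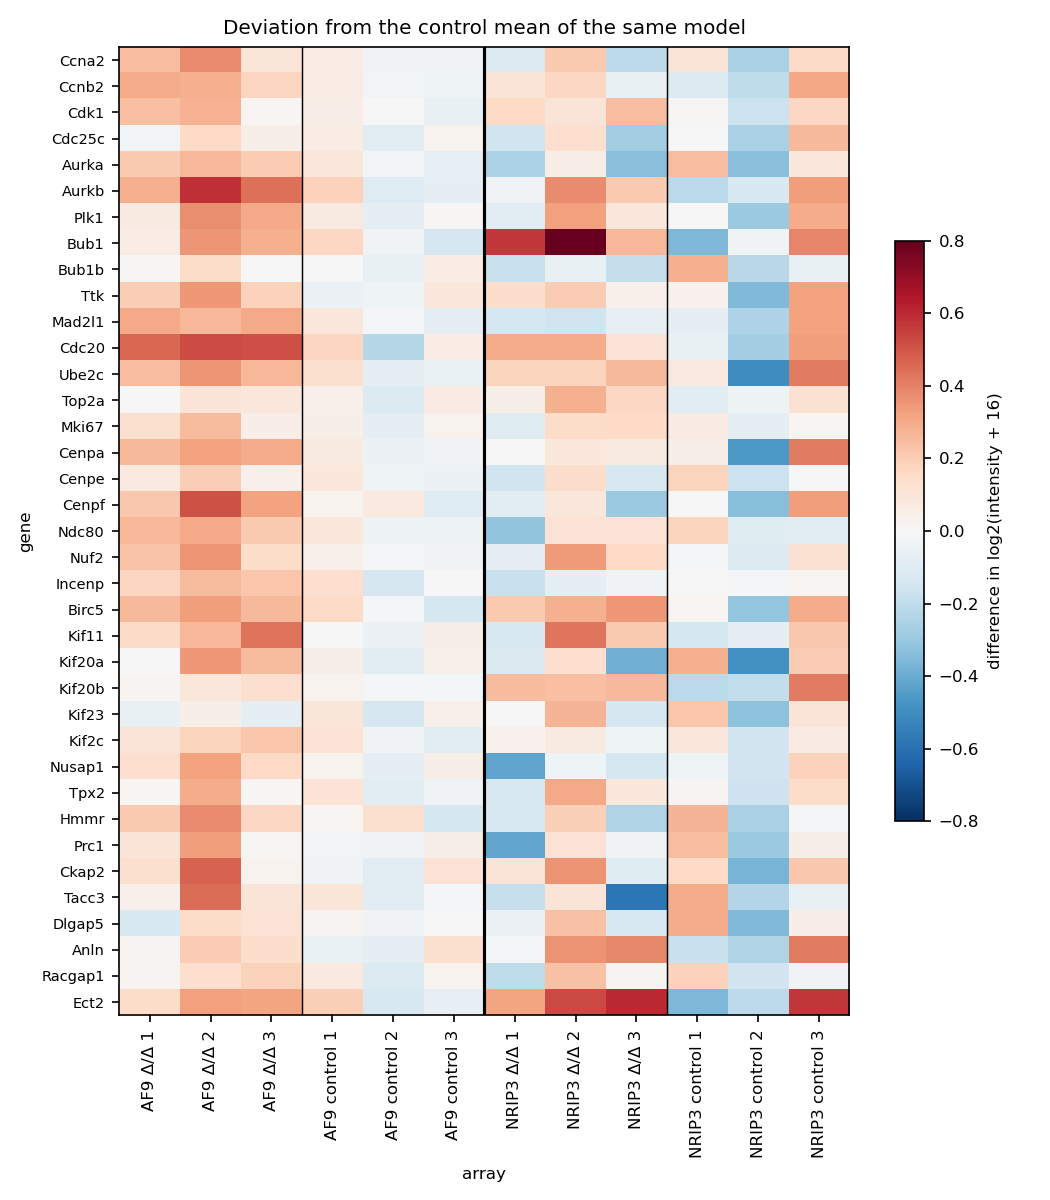
Difference of each array (x axis) from the control mean of its model, in log2(intensity + 16), for the 37 genes (y axis, by role); red is higher and blue lower. In MLL-AF9 leukemia RictorΔ/Δ columns are red for most genes, palest on array 1; in MLL-NRIP3 leukemia control array 2 is blue and control array 3 red over most of the list.

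Of the 82 other mitotic genes 0 were called in MLL-NRIP3 leukemia in limma and 12 had an unadjusted p under 0.05, with a median log2 fold change of 0.12. Of the 38 G1/S genes 0 were called and 6 had an unadjusted p under 0.05, with a median of 0.16. Among all genes tested 1.53% were called and 17.7% had an unadjusted p under 0.05, so neither list stood above that share. Neutrophil markers ran the other way from those of MLL-AF9 leukemia: of 23, 5 fell and 1 rose, with sums of 6198 to 10768 on RictorΔ/Δ arrays and 10565 to 28750 on control arrays. Of 5 mast cell and basophil genes 2 rose, with sums of 815 to 2371 on RictorΔ/Δ arrays and 461 to 535 on control arrays. Of 9 lymphocyte genes 1 fell, but 6 lay above 0, with a median log2 fold change of 0.05 and a range of −3.1 to 0.37. The lymphocyte sums, 131 to 194 on RictorΔ/Δ arrays and 285 to 1222 on control arrays, thus do not describe the list as a whole. Kit was at 0.58, with all RictorΔ/Δ arrays above all controls (adjusted p = 0.14), and its response differed between the models (0.98, MLL-NRIP3 minus MLL-AF9, adjusted p = 0.041). Which cells carried the RNA of these markers was not tested, nor was their part in the values of mitotic transcripts.

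Whether the response differed between the models was tested as an interaction, MLL-NRIP3 minus MLL-AF9, with all 12 arrays and a weight per model. None of the 37 genes was called, against 4.78% of all genes. An unadjusted p under 0.05 was found for 4 of the 37, and for 2328 of all 12573 genes. The 4 were Mad2l1 (−0.41 ± 0.15 SE on the log2 scale, limma adjusted p = 0.15), Nusap1, which bundles spindle microtubules (−0.40 ± 0.16, 0.19), Incenp (−0.31 ± 0.14, 0.24) and Aurka (−0.40 ± 0.18, 0.25). The difference was negative for 31 of 37 genes, as for 48.6% of all genes, with a median of −0.14. Intervals were wide: that of Cdc20 reached from −0.72 to 0.19 and that of Birc5 from −0.40 to 0.39, so the data neither set the models apart nor show that they respond alike.

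Further probe sets were available for 24 of the 37 genes, 39 in all. In MLL-AF9 leukemia 35 of the 39 lay above 0, at a median log2 fold change of 0.12 (−0.08 to 0.58). When each of 22531 probe sets was fitted on its own, 12 probe sets of the listed genes were called, 7 of them the brightest of their gene. A further probe set was called for Ccna2, Cdc20, Cenpe, Hmmr and Kif11. Those of Kif11, Cenpe, Ccna2 and Hmmr rose by 0.58, 0.36, 0.31 and 0.28 (adjusted p of 0.013, 0.031, 0.033 and 0.049), where in the same fit the brightest of the gene was not called (0.061, 0.50, 0.096 and 0.13). The brightest probe set of Birc5 missed the threshold too (0.053). Brightness was taken as the mean over all 12 arrays. On the MLL-AF9 arrays alone the called probe set of Cenpe was the brighter, at a mean of 125 against 115. In MLL-NRIP3 leukemia 27 of the 39 were positive and 0 called, in limma as above. The share of all probe sets called or above 0 in these fits was not counted, so the numbers lack a background.

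**Figure D5:**
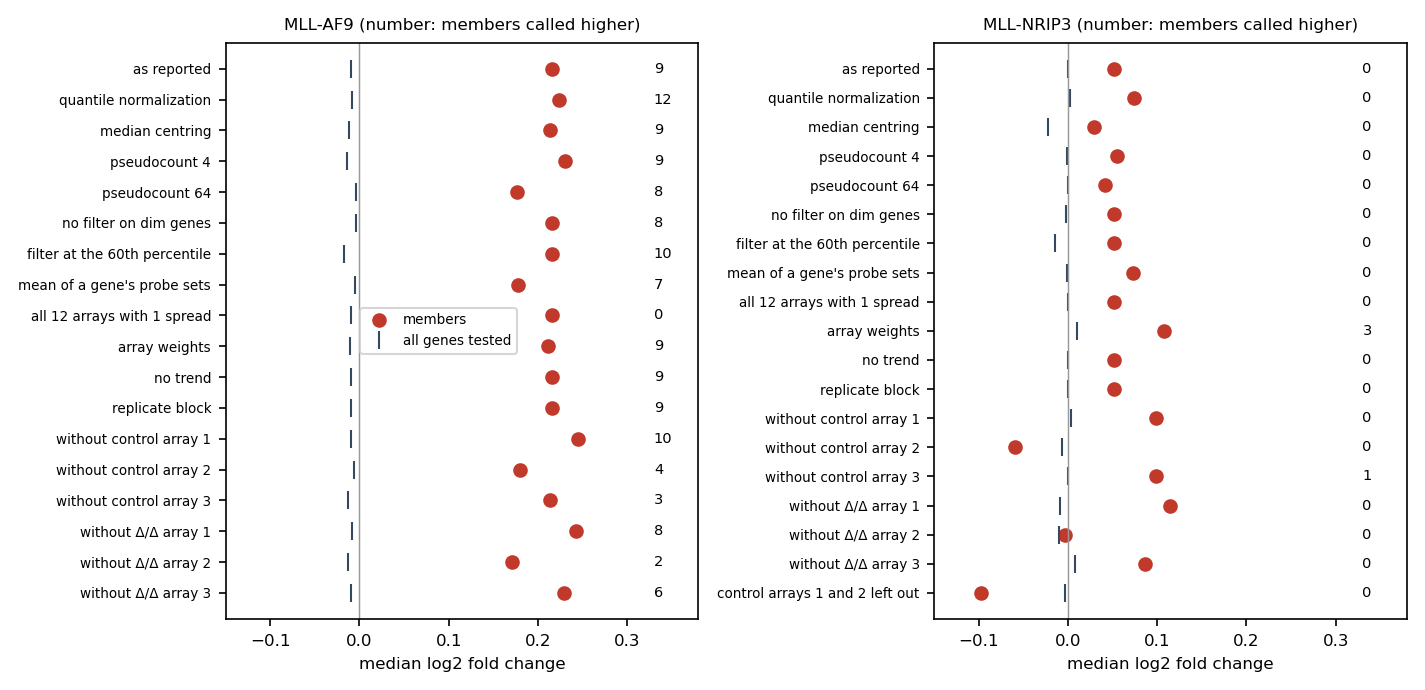
Median log2 fold change (x axis), RictorΔ/Δ minus control, of the 37 genes (circles) and of all genes tested (bars) under each setting of the analysis (y axis), with the number of listed genes called higher at the right of each row. In MLL-AF9 leukemia the median stays between 0.17 and 0.24 while the calls run from 0 to 12; in MLL-NRIP3 leukemia it lies between −0.10 and 0.11.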

How the data were processed

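Biotin-labelled cRNA from sorted mouse leukemia cells was hybridised to 12 Affymetrix arrays, per the labels' protocols. The authors deposited a linear intensity for each of 45101 probe sets on every array; their summarisation, background correction and scaling: not given in the sources used here. Genes were named from 34958 probe sets with 1 symbol in the platform annotation (932 had several symbols and 9211 none), each gene by its brightest probe set. A filter at the 40th percentile of mean intensity over all probe sets (7.70) removed 5621 of 18194 genes.

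Deposited values were taken to log2(intensity + 16). Since the models differ in spread, each was fitted on its own 6 arrays by lmFit and trended eBayes (limma 3.58.1, R 4.3.3), leaving 4 residual degrees of freedom. The difference between models used all 12 arrays, 4 group means and 1 array weight per model (2.10 for MLL-AF9, 0.477 for MLL-NRIP3). Tests were 2-sided, with Benjamini-Hochberg adjustment over all 12573 genes, and calls needed an adjusted p under 0.05. The fits were also run on simulated arrays with independent noise for each gene, a setting that does not cover genes that vary together.

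Genes given with the value of every array were those called (up to 12 per comparison), the 6 with the smallest p where fewer were called, Mki67, Cdc25c and Rictor; from other lists, up to 4 called genes with the smallest p. The values of Incenp and the naming of Foxm1 and Kit were added after they were seen. The genes and lists were chosen with earlier results of these data known. Alternatives covered normalization, pseudocount, filter, probe sets, shared spread, array weights, trend, a replicate block and leaving out arrays. The separate fit of probe sets and the place and strand of CHR matches were added after seeing the data. Python 3.11.15, pandas 2.3.3 and matplotlib 3.10.9 made tables and figures.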

Additional observations from a re-analysis of the deposited data

Results flagged for a closer look

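Incenp was singled out because its arrays moved in opposite directions: every RictorΔ/Δ array lay above every control in MLL-AF9 leukemia and below every control in MLL-NRIP3 leukemia, as for 200 of 12573 genes (1.59%). The difference of the responses, MLL-NRIP3 minus MLL-AF9, was −0.31 ± 0.14 (SE) on the log2 scale and did not pass the threshold (limma adjusted p = 0.24). In MLL-AF9 leukemia its 3 further probe sets above the filter were at 0.05, 0.05 and −0.01, against 0.22 for the brightest. In MLL-NRIP3 leukemia they were at 0.05, 0.11 and −0.00097, against −0.09 for the brightest, so the opposite directions rest on 1 probe set.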

How the results depend on the processing

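The median of the 37 genes in MLL-AF9 leukemia kept its sign and moved by less than the spread between arrays under all 17 alternatives, and the 9 genes called there stayed above 0 in all 153 values under them. The number called was 0 with 1 spread shared by all 12 arrays and 2 to 10 when single arrays were left out, where fewer arrays entered the fit; the cause of the first was not tested. Over all genes 1039 were called, against 176 with the shared spread, 582 without RictorΔ/Δ array 2 and 661 without RictorΔ/Δ array 3. In MLL-NRIP3 leukemia the number of listed genes called was 3 with array weights (Bub1, Cdc20 and Birc5) and 0 to 1 when single arrays were left out (Ect2 without control array 3). Without control arrays 1 and 2 Ect2, Birc5 and Cdc20 reversed to −0.083, −0.015 and −0.097, and the difference between models gained 1 call (Mad2l1, adjusted p = 0.035). Over all genes 192 were called, against 1734 with the shared spread, 3009 with array weights, 82 with the mean of probe sets, 27 without control arrays 1 and 2 and 30 to 862 without single arrays. The difference between models had 601 calls over all genes, against 246 without those 2 controls and 289 to 1113 without single arrays.

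Replicate numbers did not pair the arrays: deviations of same-numbered RictorΔ/Δ and control arrays correlated between −0.14 and 0.06 across genes. With the replicate block 9 of the 37 genes were called in MLL-AF9 leukemia, 0 in MLL-NRIP3 leukemia and 0 in the difference. The number of arrays, 3 per group, limits the precision.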
